A study of Mus musculus with 10 samples.

Results

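The response of Ptger4+/+ B cells to prostaglandin E2 (PGE2) under stimulation of the B cell receptor was measured on 2 of the 10 arrays of the series. These are the arrays whose channels held RNA of Ptger4+/+ cells kept for 24 h with anti-IgM and PGE2, and RNA of Ptger4+/+ cells kept for 24 h with anti-IgM alone. They were chosen by these channel labels and by no measured value. On array 1 the RNA with PGE2 carried Cy5, and on array 2 the dyes were exchanged. The cells came from the spleens of female mice aged 2 months, were isolated with a B cell kit and were cultured in IMDM medium. Both sides of the comparison received F(ab')2 fragments against IgM, which engage the B cell receptor, so every ratio describes PGE2 on top of that stimulus. Doses, strain and the number of mice behind each RNA are not stated in the labels. For comparison, the same pair of conditions in cells labelled Ptger4-/- was used (2 arrays), together with anti-IgM over medium at 2 h in Ptger4+/+ cells (2 arrays) and with cells labelled Ptger4-/- over Ptger4+/+ cells, both with anti-IgM and PGE2 for 24 h (2 arrays). Each array gave a log ratio for 25344 probes, which were averaged by gene symbol to 18300 genes. With the 4233 probes that carry no symbol, 22533 features were tested.

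PGE2 is a lipid signal made from arachidonic acid that acts through 4 receptors of the cell surface, which the genes Ptger1 to Ptger4 encode. The Ptger2 and Ptger4 products couple to stimulatory G protein and raise cyclic AMP, which activates protein kinase A and, through it, the transcription factors Creb1, Crem and Atf1. Antigen, or anti-IgM in its place, drives resting B cells through NF-kB, Myc and cyclin D into growth and DNA synthesis. Cyclic AMP is known as a brake on this step in lymphocytes, and phosphodiesterases such as the Pde4b product limit it by degrading cyclic AMP.

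All values below are log2 ratios of anti-IgM with PGE2 over anti-IgM alone, unless another comparison is named. A mean is that of n = 2 arrays, and its error is the standard error of a limma fit that estimated the spread of a feature over all 10 arrays. A feature was called where its limma adjusted p was at most 0.05. The values came without a stated scale or direction and were read as log2 of Cy5 over Cy3. On that reading, 8 of 9 measured immediate-early genes of the B cell receptor were above 0 on both 2 h arrays, and 6 of them were at least 2-fold higher on both. Nor is it stated whether a pair of arrays shared its RNA extracts, in which case the p-values measure technical spread and no more. A ratio carries no level: neither the identity of the cells nor the abundance of a transcript could be read from these arrays, and fewer cells of a type cannot be told apart from less RNA per cell. Over all 22533 features the Ptger4+/+ arrays gave a Pearson r of 0.379 (Spearman rho 0.292), and 9294 features had opposite signs on them. The corresponding arrays of cells labelled Ptger4-/- gave an r of -0.219 (rho -0.337). Since the spread was estimated over all 10 arrays, a feature had the same standard error in both genotypes. These correlations run across features of arrays that share a dye and a print design, and describe the arrays only.

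With PGE2, 2053 features were called higher (9.11% of those tested) and 3835 lower (17%), together 26.1%. No intensities were analysed here, so these shares also cover genes that B cells may not express. The rises were small, with a median of 0.23 over the features called higher, a 1.18-fold change. The falls were larger, with a median of -0.40, a 1.32-fold change. Of the features called higher, 51 were at least 1.5-fold changed on both arrays, against 681 of those called lower. At 2-fold on both arrays, 7 features were higher (0.0311%) and 149 lower (0.661%), whereas 15 (0.0666%) met the size rule when array 2 was left unturned. Among the 149 was Pdcd1, the gene of the inhibitory receptor PD-1, at -1.46 and -1.39, which was not called because its standard error was 0.73. The split of calls depended on scaling: with every array centred and scaled to the same spread, 856 features were higher and 2783 lower. The counts also fell when an array of the pair was left out, to 1004 higher and 2870 lower without array 1, and to 646 and 2017 without array 2.

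**Figure D1:**
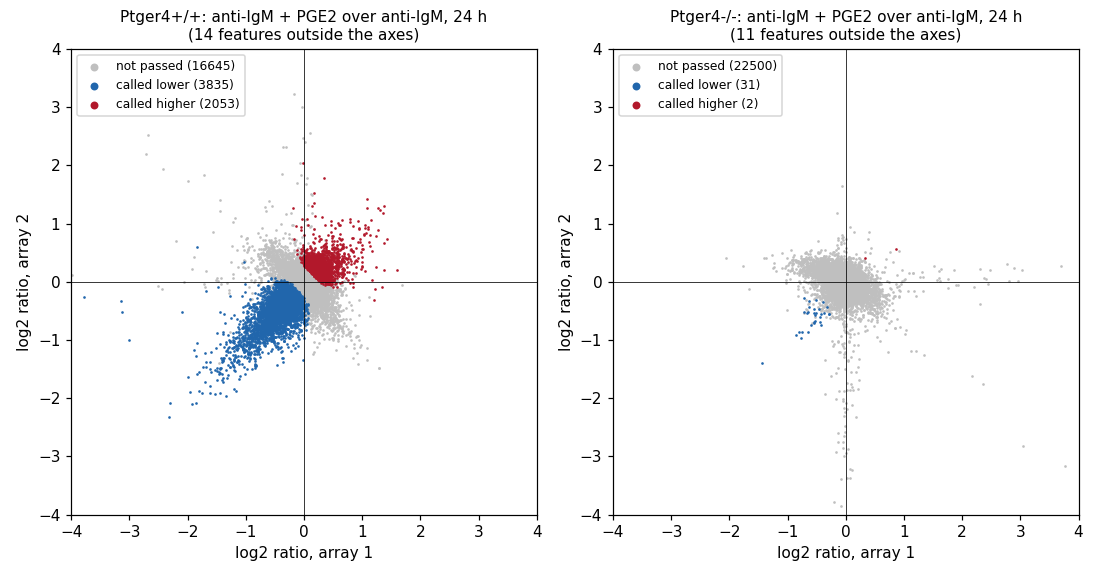
Log2 ratio of anti-IgM with PGE2 over anti-IgM alone on array 1 (x axis) against array 2 (y axis) for 22533 features, in Ptger4+/+ cells (left) and cells labelled Ptger4-/- (right), with 14 and 11 features outside the axes. Blue and red points are called lower and higher: the 3835 falls of the Ptger4+/+ panel stretch along the diagonal, while the Ptger4-/- panel has 33 called points and many features that are far from 0 on 1 array only.

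In cells labelled Ptger4-/-, PGE2 gave 2 features called higher (0.00888%) and 31 called lower (0.138%), together 0.146%, with 1880 at an unadjusted p under 0.05. A single feature, Pfn1, was at least 2-fold changed on both of their arrays (0.00444%). The features called lower in Ptger4+/+ cells had a median of -0.03 there, and those called higher a median of 0.01. The difference between the genotypes was itself tested, since the comparisons share no labelled RNA. It was called for 2852 features (12.7%): the response was higher in Ptger4+/+ cells for 750 (3.33%) and lower for 2102 (9.33%). Of the 3835 features called lower with PGE2, 2082 (54.3%) passed that test as lower in Ptger4+/+ cells, and of the 2053 called higher, 675 (32.9%) passed it as higher. The rest of either class did not show a difference at this precision. The classes were formed on the Ptger4+/+ arrays that also enter the difference, so these shares are no independent result.

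Ptger4 itself fell, at -0.63 and -0.54 on the arrays (mean -0.59 ± 0.07, limma adjusted p = 0.000964). The arrays agreed closely: the 1 probe of the receptor gene that the genotype labels name gave less signal after a day with the ligand. In cells labelled Ptger4-/- its mean ratio was 0.04, and the difference between genotypes was -0.63 (limma adjusted p = 0.00647), which missed the limit (0.0631) without array 2 of those cells. The probe did not lose signal where the label says Ptger4-/-: for that RNA over Ptger4+/+ RNA, both with PGE2, its mean ratio was 0.49. Where the probe lies relative to the deletion is unknown here, so it cannot check the genotype. Whether its fall with PGE2 is one of intact receptor RNA was not tested.

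The largest rises included genes of small GTPases, of a decoy receptor and of a chromatin organiser. Rasd1, which encodes a Ras-related GTPase induced by glucocorticoids, was at 1.37 and 1.30 (mean 1.33 ± 0.05, a difference from Ptger4-/- of 1.35). Il1r2, the gene of a decoy receptor that binds interleukin-1 without signalling, was at 1.27 on both arrays. Satb1, a chromatin organiser of lymphocytes, was at 1.09 and 1.42. These were rises of more than 2-fold that stood on both arrays. Ptk7, a receptor-like kinase without enzyme activity, was at 1.09 and 1.26, and Pnmal1 at 1.35 and 1.19. Ly6a, which encodes the surface antigen Sca-1, was at 1.14 and 1.06. With these, 6 named genes reached 2-fold on both arrays. The GTPase gene Rac3 was at 1.10 and 0.94, the vesicle protein gene Syngr2 at 1.05 and 0.98, and the membrane protein gene Tmem72 at 1.04 and 0.93. The phosphatase inhibitor gene Ppp1r14c, the secretoglobin gene Scgb1b27 and the vomeronasal receptor gene Vmn2r42 completed the 12, between 0.91 and 1.05 on single arrays. Over the 12 genes the means ran from 0.93 to 1.33, and the highest limma adjusted p was 0.000903. In cells labelled Ptger4-/- the same genes lay between -0.31 and 0.14, and the difference was called for all 12, with 0.00988 as the highest limma adjusted p. The genes were ranked on the Ptger4+/+ arrays that also enter the difference, so that count is no independent result. The next gene in order, Cntfr, encoding a receptor of ciliary neurotrophic factor, was at 0.84 and 0.96.

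**Figure D2:**
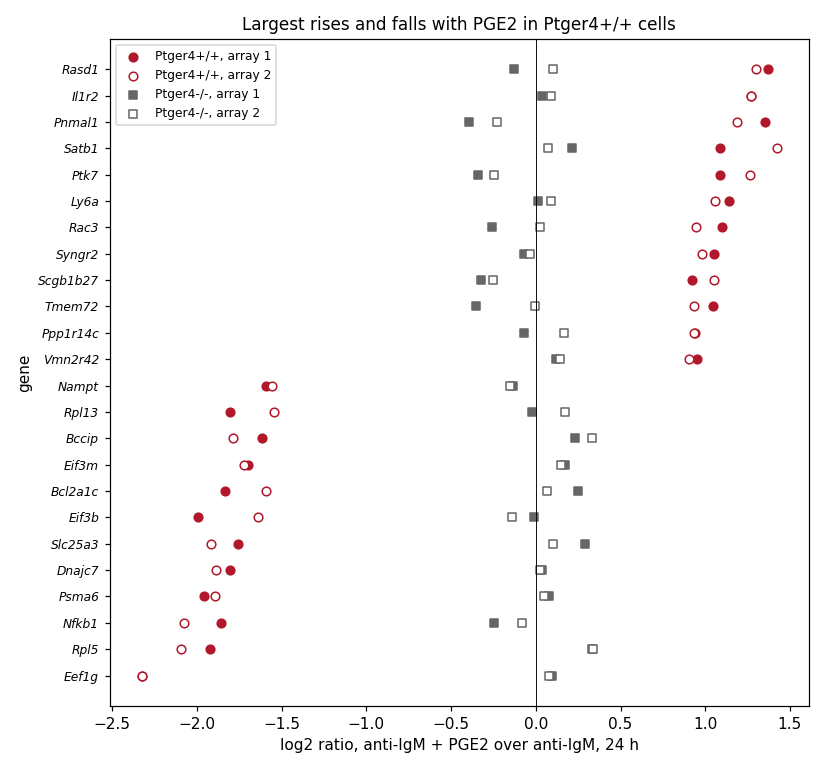
Log2 ratio of anti-IgM with PGE2 over anti-IgM alone (x axis) for the 12 largest rises and 12 largest falls of Ptger4+/+ cells (y axis, genes), with circles for the Ptger4+/+ arrays and squares for the arrays labelled Ptger4-/- (filled: array 1, open: array 2). The Ptger4+/+ values lie at 0.91 or above for the rises and at -1.55 or below for the falls, and the Ptger4-/- pairs near 0.

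The largest falls included genes of translation, of the proteasome and of NF-kB. Eef1g, a subunit of the elongation factor that brings aminoacyl-tRNA to the ribosome, was at -2.32 and -2.33 (mean -2.33 ± 0.06). Rpl5, a protein of the large ribosomal subunit that also binds Mdm2, was at -1.92 and -2.10, and Psma6, a core subunit of the proteasome, at -1.96 and -1.89. Nfkb1, which encodes the p105 precursor of the NF-kB subunit p50, was at -1.86 and -2.08 (mean -1.97 ± 0.08). Each of these 4 was lowered about as far on array 1 as on array 2. The chaperone cofactor gene Dnajc7 was at -1.80 and -1.88, and Slc25a3, whose product imports phosphate into mitochondria, at -1.76 and -1.92. Genes of the translation initiation factor eIF3 were also among them, with Eif3m at -1.70 and -1.72 and Eif3b at -2.00 and -1.64. Bccip, which encodes a partner of Brca2, was at -1.62 and -1.79. The remaining 3 genes join survival, NAD supply and the ribosome. Bcl2a1c, from a family of near-identical survival genes whose members a probe may not separate, was at -1.83 and -1.59. Nampt, which encodes the enzyme of NAD salvage, was at -1.59 and -1.56, and Rpl13 at -1.81 and -1.55. Ribosomal protein genes have many near-identical pseudogenes, so their ratios are uncertain in the same way. The means of the 12 ran from -2.33 to -1.57, the highest limma adjusted p was 6.67e-05, and in cells labelled Ptger4-/- the same genes lay between -0.16 and 0.33. The difference was called for all 12 (highest limma adjusted p 0.000761), but they too were ranked on the Ptger4+/+ arrays that enter it. The next in order was Senp3, a SUMO protease gene of the nucleolus, at -1.52 on both arrays.

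Among the 20 measured genes of prostaglandin receptors and enzymes, 4 fell and 16 did not pass the test. Besides Ptger4 these included Ptger2, the gene of the other PGE2 receptor that raises cyclic AMP, at -0.57 and -0.65 (mean -0.61 ± 0.05). The thromboxane receptor gene Tbxa2r was at -0.65 and -0.77, and Ptges3, a prostaglandin E synthase and Hsp90 cochaperone gene, at -0.48 and -0.63. The ratios of both PGE2 receptor genes that couple to cyclic AMP were thus below 0 on each array. The other PGE2 receptors, Ptger1 at -0.00 and Ptger3 at 0.01, did not pass. The median of the list was -0.01, beside 0.01 over all features, and its share of falls was close to the 17% of all features.

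Of 42 measured genes of the cyclic AMP machinery, 6 rose and 9 fell, shares that lie near those of all features (9.11% and 17%). Pde4b, encoding a phosphodiesterase of lymphocytes, was at 0.61 and 0.76 (mean 0.68 ± 0.06, limma adjusted p = 0.000373), and Pde3a at 0.29 and 0.41. Pde4c was at 1.59 and 0.20, arrays so far apart that its call was lost without array 1 or the dye term. Pde4d, at 0.05 and 0.21, did not pass. The falls included the genes of inhibitory G protein subunits, which lower cyclic AMP: Gnai2 was at -1.40 and -1.35 and Gnai3 at -0.90 and -0.76. They also included the small GTPases that cyclic AMP activates through Epac, with Rap1a at -1.08 and -1.04 and Rap1b at -0.63 and -0.58. Each of these falls, and the rise of Pde4b, differed from cells labelled Ptger4-/- by the limma test of the difference. The difference was 0.55 for Pde4b (limma adjusted p = 0.00812).

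In the CREB family and its coactivators, 2 of 14 measured genes rose and 5 fell, beside 9.11% and 17% of all features. Crem, which makes the early repressor ICER from an internal promoter, was at 0.79 and 1.03 (mean 0.91 ± 0.06, limma adjusted p = 9.15e-05). Atf1 was at -0.67 and -0.81, Atf2 at -0.36 and -0.47, and Crebbp, the gene of the coactivator CBP, at -0.93 and -0.43. The other rise was that of Ep300, the gene of the coactivator p300, at 0.02 and 0.25, and its call was lost without array 1, without array 2 and without a dye term. Of 31 measured genes known as cyclic AMP or CREB targets, 4 rose (Crem, Pde4b, Tsc22d3 and Klf4) and 9 fell, beside 9.11% and 17% of all features. The falls numbered 6 without array 1 and 3 without array 2, and the rises 4 and 2. Tsc22d3, encoding the leucine zipper protein GILZ, was at 0.35 and 0.63, and its call was lost without array 2. Klf4, at 0.22 and 0.14, lost its call without either array or the dye term. Among the falls were the G protein regulator gene Rgs2 at -0.28 and -0.73, the clock gene Per1 at -0.86 and -0.38, and Maff, a small Maf factor gene, at -0.51 and -0.26. The classical targets Nr4a1, Nr4a2 and Nr4a3, orphan nuclear receptor genes, had means of 0.23, 0.07 and 0.06. Nr4a1 was at 0.22 and 0.25 and missed the limit with a limma adjusted p of 0.0564, and passed it in a fit of the 4 PGE2 arrays alone (0.0489).

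The promoter windows below are shown because they hold the core of the cyclic AMP response element, TGACG, searched on both strands, where it appears as TGACG or CGTCA. Each runs from 250 bases before to 50 after the start of the gene in RefSeq (build GRCm38.p6), 5′ to 3′ on the strand of the gene, and capitals mark the core. Pde4b, at chr4:102421305-102421604 (+), is the gene of this pathway with a clear rise, and its core begins at position -34 from the start. Ptk7, at chr17:46629455-46629754 (-), held the only core among the 9 of the 12 largest rises that had a window, at -43. Slc25a3, at chr10:91123918-91124217 (-), is among the largest falls and held 4 cores, at -121, -70, -56 and -48. Nr4a1, at chr15:101266596-101266895 (+), did not pass the test and held 4 as well, at -233, -213, -69 and -40.
Pde4b: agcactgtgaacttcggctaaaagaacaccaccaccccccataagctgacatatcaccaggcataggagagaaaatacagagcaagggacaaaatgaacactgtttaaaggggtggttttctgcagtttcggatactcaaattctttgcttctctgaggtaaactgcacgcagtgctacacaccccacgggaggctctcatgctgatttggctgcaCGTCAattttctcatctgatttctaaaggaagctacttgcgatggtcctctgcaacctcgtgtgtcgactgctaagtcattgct
Ptk7: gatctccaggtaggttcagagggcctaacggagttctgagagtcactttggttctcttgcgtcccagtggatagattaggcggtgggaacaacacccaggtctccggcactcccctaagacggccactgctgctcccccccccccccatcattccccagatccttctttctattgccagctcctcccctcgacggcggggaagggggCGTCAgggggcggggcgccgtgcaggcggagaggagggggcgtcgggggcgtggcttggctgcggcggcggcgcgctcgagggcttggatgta
Slc25a3: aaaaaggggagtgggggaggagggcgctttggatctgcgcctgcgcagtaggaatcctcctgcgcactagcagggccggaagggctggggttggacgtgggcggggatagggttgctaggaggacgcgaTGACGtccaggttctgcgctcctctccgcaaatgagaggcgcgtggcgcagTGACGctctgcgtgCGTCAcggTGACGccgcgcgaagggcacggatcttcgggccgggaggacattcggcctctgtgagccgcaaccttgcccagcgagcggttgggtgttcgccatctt
Nr4a1: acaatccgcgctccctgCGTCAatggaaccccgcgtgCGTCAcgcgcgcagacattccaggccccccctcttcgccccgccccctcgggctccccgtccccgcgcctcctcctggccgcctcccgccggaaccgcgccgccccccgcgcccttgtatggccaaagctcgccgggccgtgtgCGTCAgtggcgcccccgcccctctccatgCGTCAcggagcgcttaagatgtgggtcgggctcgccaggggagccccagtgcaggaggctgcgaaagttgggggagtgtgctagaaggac
The 4 windows show the core beside a rise, beside a fall and beside a ratio that did not pass. Over all measured genes with a window (14684 of 18300), 28.7% held TGACG and 2.79% the full element TGACGTCA, which contains the core on each strand. Among genes called higher with PGE2, 21% and 1.94% did, and among genes called lower with PGE2 40.4% and 4.15%. Among genes called higher with anti-IgM at 2 h in Ptger4+/+ cells, the shares were 42.8% and 4.39%. The windows of genes called lower with PGE2 were also richer in G and C. Their median was 61.2%, against 55.3% for genes called higher with PGE2, 60.7% for those raised by anti-IgM and 57.7% for all. Over the list of cyclic AMP and CREB targets, 19 of 25 genes with a window held the core (76%) and 3 the full element (12%). That list was compiled from known targets, so its shares are no independent result. In the whole RefSeq table of 32851 windows the shares were 20.8% and 1.79%. A match of letters is no binding site, and what these shares mean for any factor was not tested.

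Genes of NF-kB moved mostly down: of 25 measured subunits, inhibitors and targets, 16 fell and 1 rose, beside 17% and 9.11% of all features. The rise was that of Bcl3, an atypical IkB gene, whose call was lost without array 1 or array 2. The median was -0.29, with -0.03 in cells labelled Ptger4-/-. Besides Nfkb1, the inhibitor genes Nfkbia and Nfkbie, which NF-kB itself induces, were at -1.70 and -1.22 and at -1.28 and -1.33. The adhesion gene Icam1 was at -1.19 and -1.30. Both inhibitors and targets of the factor were lower, each on both arrays. The chemokine genes Ccl3 and Ccl4, which attract T cells and monocytes, were at -1.12 and -1.41 and at -1.18 and -0.97. Tnf was at -0.86 and -0.75, and Map3k8, the kinase Tpl2 that p105 holds, at -0.79 and -0.88. The difference from cells labelled Ptger4-/- was called lower for 9 of the 25 and higher for 1. Without array 1 the list had 12 falls and without array 2 it had 9.

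The kB site was searched on both strands as GGG, any pair of bases, then TTTCC, and 6 of 19 genes of the NF-kB list with a window held it (31.6%), against 1.8% of all measured genes with a window, 1.85% of those called higher and 2.04% of those called lower. The list was compiled from known targets of the factor, so its share is no independent result. The window of Nfkbia, at chr12:55492598-55492897 (-), is shown because its fall was among the strongest of the list, with the site in capitals at -29.
Nfkbia: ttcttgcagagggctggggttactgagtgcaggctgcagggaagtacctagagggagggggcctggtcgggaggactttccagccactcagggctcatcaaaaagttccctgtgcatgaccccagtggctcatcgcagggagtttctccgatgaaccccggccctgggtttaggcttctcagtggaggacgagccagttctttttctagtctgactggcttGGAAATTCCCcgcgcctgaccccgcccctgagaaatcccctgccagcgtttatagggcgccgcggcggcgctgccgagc
Over all genes called lower the share of this site was close to that of all measured genes, unlike the share of TGACG. The latter was also high among genes raised by anti-IgM at 2 h (42.8%).

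Immediate-early genes, which anti-IgM induces within hours, gave 2 rises and 9 falls among 25 measured, beside 9.11% and 17% of all features. Both rises lost their calls without a dye term, while 8 genes were still called lower there. Dusp2, a phosphatase gene of MAP kinases, was at -1.61 and -1.39 (mean -1.50 ± 0.07), Ier5 at -0.79 and -0.77 and the zinc finger gene Egr2 at -0.65 and -0.82. Myc, the regulator of growth, was at -0.67 and -0.48 (mean -0.57 ± 0.04, limma adjusted p = 0.000182). At this late time the ratios of Egr2 and Myc were thus below 0 on both arrays. In feedback genes of the MAP kinase pathway, 8 of 19 fell and 1 rose, and 5 were called lower without array 2. Rasa2 and Rasa1, whose products switch off Ras, were at means of -1.09 and -0.83, and the kinase gene Map2k1 was at -0.62 and -0.69.

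Of 33 measured genes of the B cell receptor and its signalling, 4 rose and 10 fell, with a median of -0.04, beside 9.11% and 17% of all features. The falls numbered 7 without array 1 and 6 without array 2. Cd79a, which encodes the Ig-alpha chain, was at 1.02 and 0.81 (mean 0.92 ± 0.06, limma adjusted p = 0.000145), and the inhibitory receptor gene Cd22 at 1.02 and 0.56. Csk, the gene of the kinase that restrains Src kinases, was at 0.23 and 0.43. The call of Csk was lost without a dye term. The coreceptor gene Cd81 was at -0.93 and -0.85 and the phosphatase gene Ptprc (CD45) at -1.11 and -1.68. The adaptor genes Blnk, Bcl10 and Pik3ap1 were at -0.61 and -0.68, at -0.96 and -0.67, and at -0.84 and -1.24.

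Of 28 measured genes of activation and costimulation, 9 fell and 2 rose, with a median of -0.13. Over all features, 17% were called lower and 9.11% higher. Batf, an AP-1 factor gene of class switching, was at -1.06 and -1.18, the transferrin receptor gene Tfrc at -1.12 and -1.07, and Tnfrsf4, encoding the receptor OX40, at -0.75 and -0.93. Slc3a2, the heavy chain of amino acid transporters, was at -0.70 and -0.81. In antigen presentation 6 of 18 measured genes fell and 2 rose. Cd74, the invariant chain gene, was at -1.60 and -1.21, the class II gene H2-Aa at -1.05 and -1.11 and H2-DMa, which helps peptide loading, at -0.80 and -0.57. Rfx5, a regulator of class II promoters, went the other way at 0.60 and 0.97. The other rise was that of the class II gene H2-Ob, at a mean of 0.21, and its call was lost without a dye term. The remaining 10 of the 18 genes did not pass. The called class II genes thus did not all move in 1 direction.

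Of 30 measured chemokine, cytokine and receptor genes, 4 rose and 6 fell, and Ccl3, Ccl4 and Tnf were among the falls. Il10ra, the receptor chain of interleukin-10, was at 0.60 and 0.43, and Tgfb1 at -0.75 and -1.06. Among 23 measured genes of homing and positioning, 5 rose and 4 fell, beside 9.11% and 17% of all features, and the rises numbered 2 without array 1 and 2 without array 2. The share of falls was near the background for these and for the chemokine list. Ccr6, the receptor of Ccl20, was at 0.79 and 1.08 (mean 0.93 ± 0.06, limma adjusted p = 0.000116), and S1pr1, which guides lymphocytes out of lymphoid organs, at 0.57 and 0.51. Ccr7, which draws B cells towards T cell zones, was at 0.34 and 0.38, and its call was lost without array 1 (limma adjusted p = 0.0758) or array 2 (0.0796). Gna13, the G protein gene downstream of confining receptors in the germinal centre, was at -0.78 and -1.14. Receptor genes made up the rises of this list that are named here, and a G protein gene the strongest fall.

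**Figure D3:**
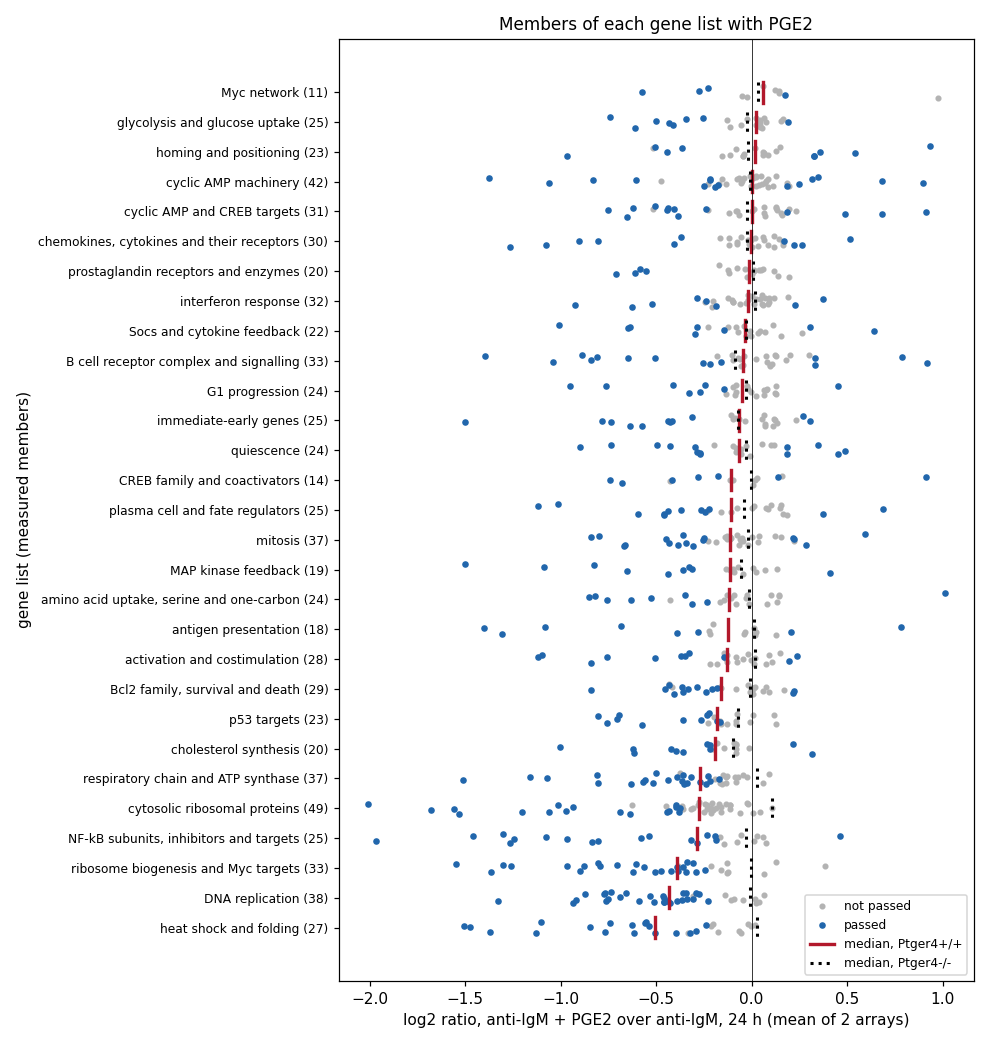
Mean log2 ratio with PGE2 of Ptger4+/+ cells (x axis) for every measured member of 29 gene lists (y axis, number of members in brackets), blue where the limma test was passed, with the list's median in red and its median in cells labelled Ptger4-/- dotted. Lists are ordered by median: heat shock and folding, DNA replication, ribosome biogenesis and NF-kB lie lowest, and the dotted medians lie near 0.

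Genes of DNA replication fell as a group: 29 of 38 measured members passed as lower, beside 17% of all features. The other 9 did not pass, and the median was -0.43 (array medians -0.43 and -0.47). Subunits of the replicative helicase led, with Mcm4 at -1.22 and -1.44 (mean -1.33 ± 0.06), Mcm3 at -0.81 and -1.03, Mcm6 at -0.73 and -0.80 and Mcm7 at -0.56 and -0.63. Pola2 of DNA polymerase alpha was at -0.96 and -0.79 and Rpa3, which covers single strands, at -0.65 and -0.86. Helicase, polymerase and single-strand binding genes were each lower on both arrays. Rrm2, a subunit of the enzyme that makes deoxynucleotides, was at -0.64 and -0.83. In cells labelled Ptger4-/- the median was -0.01, and the difference was called lower for 25 of the 38. The count of falls was 26 without array 1, 23 without array 2 and 25 without a dye term. The E2F site was searched as TTTCCCGC on both strands, and 5 of 33 list members with a window held it (15.2%), against 1.72% of all measured genes with a window, 1.05% of those called higher, 2.89% of those called lower and 1.07% of the whole table. The list was compiled from known genes of replication, so its share is no independent result. What the site means for these falls was not tested. Mcm3, at chr1:20820263-20820562 (-), is shown as a helicase gene with that site in capitals, which begins at position 20 after the start.
Mcm3: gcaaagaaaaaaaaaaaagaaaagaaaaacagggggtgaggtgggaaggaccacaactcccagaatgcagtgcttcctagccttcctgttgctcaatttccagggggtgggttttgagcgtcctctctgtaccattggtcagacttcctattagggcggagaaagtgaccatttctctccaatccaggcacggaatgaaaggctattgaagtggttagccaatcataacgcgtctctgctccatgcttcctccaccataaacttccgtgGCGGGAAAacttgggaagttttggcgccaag
Mcm3 is 1 of the 25 members whose fall differed between the genotypes.

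The steps before and after S phase moved less evenly, beside 17% of all features called lower and 9.11% called higher. Of 24 measured genes of G1 progression, 7 fell and 1 rose, with 4 falls without array 1 and 3 without array 2. Ccnd2, the cyclin D gene of B cells, was at -0.82 and -0.71 (mean -0.76 ± 0.07, limma adjusted p = 0.000364), its partner kinase Cdk4 at -1.13 and -0.77, and Skp2, which directs p27 to destruction, at -0.36 and -0.46. The cyclin and its kinase were thus lower together. The rise was that of Cdkn1b, encoding p27, at 0.55 and 0.35 (mean 0.45 ± 0.08, limma adjusted p = 0.00516). Its call was lost without a dye term (0.0582) and without array 2 (0.0812). Cdkn1a, encoding the inhibitor p21, was at -0.41 and 0.24 and did not pass. Among 37 measured genes of mitosis, 12 fell and 4 rose, with a median of -0.11, and 7 were called lower without array 2. Birc5 was at -0.88 and -0.81, the Cdk subunit gene Cks2 at -0.85 and -0.75, the checkpoint gene Mad2l1 at -0.54 and -0.79 and the cyclin gene Ccna2 at -0.67 and -0.65. Hmmr, a hyaluronan receptor and spindle gene, rose on both arrays, at 0.56 and 0.63. Of 24 measured genes of quiescence, 5 rose and 8 fell, beside 9.11% and 17% of all features. Without array 2 no rise kept its call and 3 genes were called lower, and without array 1 the counts were 4 and 7. The quiescence factor gene Klf2 was at 0.31 and 0.39, with its call lost without array 2, while its relatives Klf3 and Klf6 were at -0.66 and -0.81 and at -0.31 and -0.55.

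Genes of ribosome biogenesis, many of them Myc targets, fell in 24 of 33 cases, beside 17% of all features. The other 9 did not pass, and the median was -0.39. Gnl3, encoding nucleostemin, was at -1.42 and -1.68, Nop56, a core protein of box C/D particles, at -1.21 and -1.52, and Nop16 at -1.29 and -1.31. The helicase gene Ddx21 was at -0.79 and -0.82, Ppan at -0.97 and -0.82, and Utp4, of the small subunit processome, at -0.77 and -1.16. Genes for both subunits of the future ribosome were lower on each array. The count was less steady than that of replication, with 16 falls without array 1, 10 without array 2 and 14 without a dye term. In the Myc network itself 3 of 11 genes fell, Myc among them, and 1 rose. The E-box was searched as CACGTG, which reads the same on both strands, and 6 of 27 biogenesis genes with a window held it (22.2%), against 9.9% of all measured genes with a window, 6.61% of those called higher, 13.9% of those called lower and 7.15% of the whole table. The list was compiled with Myc targets in it, so its share of E-boxes is no independent result. Utp4, at chr8:106893390-106893689 (+), is shown with the E-box in capitals, which begins at position 16 after the start. Rpl13, at chr8:123102100-123102399 (+), is shown beside it as the member of the largest falls that held the full cyclic AMP response element, whose cores begin at -24 and -21.
Utp4: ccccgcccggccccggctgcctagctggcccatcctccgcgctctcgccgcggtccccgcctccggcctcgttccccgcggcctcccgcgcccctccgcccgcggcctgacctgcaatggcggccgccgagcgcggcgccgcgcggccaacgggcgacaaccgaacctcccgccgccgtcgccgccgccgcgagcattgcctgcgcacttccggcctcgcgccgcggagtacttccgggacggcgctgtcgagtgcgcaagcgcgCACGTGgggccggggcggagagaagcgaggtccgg
Rpl13: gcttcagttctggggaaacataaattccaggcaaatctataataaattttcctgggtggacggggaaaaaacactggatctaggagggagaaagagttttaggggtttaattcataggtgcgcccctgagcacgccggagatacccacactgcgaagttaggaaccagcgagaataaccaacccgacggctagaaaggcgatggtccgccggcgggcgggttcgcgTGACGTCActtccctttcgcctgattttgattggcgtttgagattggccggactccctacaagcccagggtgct
Both genes were lower by more than 1.5-fold on both arrays.

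Of 49 measured genes of cytosolic ribosomal proteins, 17 fell and the other 32 did not pass. The arrays differed here, with a median of -0.76 on array 1 and -0.11 on array 2, and the falls numbered 10 without array 1 and 18 without array 2. Rps3 was at -1.85 and -1.27, Rps7 at -1.69 and -1.38 and Rpl10 at -0.85 and -1.10. In 3 families that were chosen after their values had been seen, 11 of 12 subunits of eIF3 fell (median -0.47), 31 of 39 proteasome subunits fell and 1 rose (median -0.48), and 20 of 32 aminoacyl-tRNA synthetases fell (median -0.33). Most measured members of these 3 families were called lower, beside 17% of all features.

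Folding and energy genes showed the same direction, beside 17% of all features called lower. Of 27 measured genes of heat shock and folding, 18 fell and the other 9 did not pass, and the median, -0.50, was the lowest of the 29 lists. Subunits of the cytosolic chaperonin were prominent, with Cct7 at -1.46 and -1.55, Cct3 at -1.28 and -1.46, Cct5 at -1.04 and -1.16 and Cct2 at -0.80 and -0.74. The disulfide isomerase gene Pdia3 was at -1.45 and -1.50, and Hspa5, encoding BiP of the endoplasmic reticulum, at -0.72 and -0.97. Cytosolic and endoplasmic chaperone genes alike were lower on both arrays. In the respiratory chain and ATP synthase, 22 of 37 measured genes fell and the other 15 did not pass (median -0.27). Atp5pb of the ATP synthase was at -1.49 and -1.53, Sdhb of complex II at -1.15 and -1.17 and Ndufs3 of complex I at -1.17 and -0.97. The count of falls was 19 without array 1, 11 without array 2 and 14 without a dye term.

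Other metabolic lists were mixed, beside 17% of all features called lower and 9.11% called higher. Of 25 measured genes of glycolysis and glucose uptake, 7 fell and 1 rose, with a median of 0.02, and 3 were called lower without array 2. Aldoa was at -0.75 and -0.47, Ldha at -0.52 and -0.34 and Pkm at -0.69 and -0.79, but most of the pathway did not pass and Ldha lost its call without a dye term. In amino acid uptake and one-carbon metabolism 8 of 24 fell and 1 rose, with 5 falls without array 2. Mthfd1l, of mitochondrial folate metabolism, was at -0.81 and -0.89 and Psph, which makes serine, at -0.78 and -0.86. Ddit4, encoding the mTORC1 inhibitor Redd1, rose, at 1.24 and 0.79 (mean 1.01 ± 0.09, limma adjusted p = 0.000347). It was above 1.5-fold on both arrays, and its difference from cells labelled Ptger4-/- was 0.78 (limma adjusted p = 0.00891). In cholesterol synthesis 9 of 20 fell and 2 rose, with Ebp at -1.04 and -0.97 and Idi1 at -0.62 and -0.61. Its falls numbered 6 without array 1 and 5 without array 2.

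Among 25 measured regulators of plasma cells and B cell fate, 10 fell and 2 rose, beside 17% and 9.11% of all features. The falls numbered 7 without array 1 and 4 without array 2. Irf8, a factor of germinal centre B cells, had a mean of -1.02, Mzb1, an endoplasmic cochaperone gene of antibody secretion, at -1.21 and -1.03, Spib at -0.65 and -0.55 and Xbp1, the factor of the secretory programme, at -0.36 and -0.52. Id2, an inhibitor of E proteins, was at 0.81 and 0.56, with its call lost without array 1. Genes of the germinal centre and of secretion were both among the falls that are named here. In the Bcl2 family and other survival and death genes, 11 of 29 fell and 2 rose, but without array 1 the falls numbered 4 and without array 2 they numbered 5. Birc5, encoding survivin, and Bid, at -0.54 and -0.37, kept their calls in each of those fits. Of 23 measured p53 targets, 11 fell and the other 12 did not pass, with Phlda3 at -0.71 and -0.70, Mdm2 at -0.53 and -0.62 and Ccng1 at -0.68 and -0.84. The falls of this list numbered 7 without array 1, 7 without array 2, 5 without a dye term and 6 after scaling, and 17% of all features were called lower. Among 32 interferon response genes 6 fell and 2 rose, shares near those of all features, with Bst2 at -0.92 and -0.93 and Irf9 at 0.33 and 0.42. Without array 2 the interferon list had 3 falls. In the Socs and cytokine feedback list 6 of 22 fell and 2 rose, with 3 falls without array 1 and 4 without array 2. Jak2 was at -0.83 and -1.18, Stat5a at -0.64 and -0.63 and Stat6 at -0.66 and -0.64, while Stat4 was at 0.68 and 0.61.

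The early response to anti-IgM alone was set beside these ratios, since no labelled RNA is common to the comparisons. At 2 h, 2188 features were called higher with anti-IgM over medium in Ptger4+/+ cells (9.71%) and 2561 lower (11.4%). Of the 3835 features lowered by PGE2 at 24 h, 1228 had been raised by anti-IgM at 2 h and 822 lowered. Put the other way, the 1228 make up 56.1% of the features raised by anti-IgM, and the 822 make up 32.1% of those lowered. Over all features, 17% were called lower with PGE2. Of the 2053 features raised by PGE2, 68 had been raised and 247 lowered at 2 h. These are 3.11% and 9.65% of the anti-IgM lists, beside 9.11% of all features called higher with PGE2. Features lowered by anti-IgM were thus lowered by PGE2 above the share of all features, and raised near it. Both sets of calls use the same estimate of the spread of a feature. A feature of small spread is therefore more readily called in both, and these shares are no independent result. Ribosome biogenesis was the clearest case of opposite calls among the lists. Of its 33 members, 29 were raised at 2 h (median 0.90) and 24 lowered by PGE2 at 24 h. Single genes with opposite calls were Nampt, at 2.46 ± 0.08 with anti-IgM at 2 h and -1.57 with PGE2, Nfkb1 at 1.35 and -1.97 in that order, and Ccl3 at 3.76 and -1.27. In the rising direction, S1pr1 was at -2.82 at 2 h and 0.54 with PGE2, and Ly6a at -1.48 and 1.10. Replication genes differed from those of ribosome biogenesis, with a median of -0.03 at 2 h. Of the 12 largest rises with PGE2, 3 were also raised by anti-IgM at 2 h and 5 were lowered. The 3 were Il1r2 at 2.13, Satb1 at 1.31 and Rasd1 at 0.46 with anti-IgM. Over all features the means of the comparisons had an r of -0.18 (rho -0.119, n = 22533 features), and the times of 2 h and 24 h differ.

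**Figure D4:**
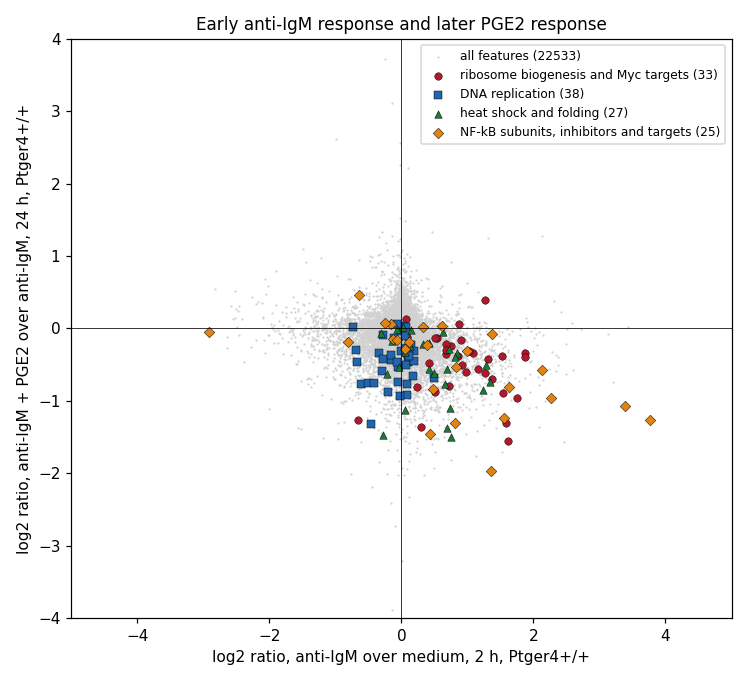
Mean log2 ratio of anti-IgM over medium at 2 h (x axis) against mean log2 ratio of anti-IgM with PGE2 over anti-IgM at 24 h (y axis) in Ptger4+/+ cells, grey for all 22533 features and coloured for 4 gene lists. Ribosome biogenesis genes lie to the lower right (medians 0.90 and -0.39), while DNA replication genes lie below 0 on the y axis around a 2 h median of -0.03.

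Where the genotypes differed most, the values went in opposite directions in a few genes. Cd79a was at 1.02 and 0.81 in Ptger4+/+ cells and at -0.75 and -0.87 in cells labelled Ptger4-/-, the largest difference in the higher direction by the rule used (1.72, limma adjusted p = 0.000346). In all, 13 features were called higher in Ptger4+/+ cells and lower in cells labelled Ptger4-/-. The values that follow are means, first in Ptger4+/+ cells and then in cells labelled Ptger4-/-, of genes picked after their values were seen. They were Grb2, an adaptor of Ras signalling, at 0.55 and -0.49, the kinase gene Ptk2b at 0.59 and -0.57, and Unc93b1, which escorts Toll-like receptors, at 0.63 and -0.46. Prmt1, an arginine methyltransferase gene, was the 1 feature with the reverse pattern, at -0.47 and 0.71. Pfn1, which encodes the actin-binding protein profilin, was at 0.16 and 0.05 on the arrays of Ptger4+/+ cells, where it did not pass, and at -1.44 and -1.39 in the others. Some genes fell in both genotypes: 9 of the 31 features called lower in cells labelled Ptger4-/- were also called lower in Ptger4+/+ cells. Among them were Ywhae, a 14-3-3 protein gene, with means of -0.83 and -0.89 in the 2 genotypes, and Tgfb1 with means of -0.91 and -0.50. For Tgfb1 the fall was still larger in Ptger4+/+ cells, with a difference of -0.41 (limma adjusted p = 0.00818).

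The direct comparison of the genotypes, both with anti-IgM and PGE2, shares the Ptger4+/+ RNA label with the arrays described here, so its values are only set beside them. It had 3593 features called higher (15.9%) and 2476 lower (11%) in RNA labelled Ptger4-/-. The 12 largest falls with PGE2 were all called higher there, from 1.66 upwards, and 11 of the 12 largest rises were called lower. Whole lists were less even. Of 33 ribosome biogenesis genes, 22 were called higher there and 11 did not pass. Of 38 replication genes, 16 were higher, 4 lower and 18 did not pass. Of 37 mitosis genes, 7 were higher, 6 lower and 24 did not pass.

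Markers of cell types were read as ratios only, beside 9.11% of all features called higher and 17% called lower. Of 11 measured B cell markers 4 were higher and 1 lower, with a median of 0.01 and a range from -0.65 (Blnk) to 0.92 (Cd79a). Of 12 T cell markers 2 were lower (range -0.35 to 0.17), and of 9 NK cell markers 1 was higher (range -0.13 to 0.18). Of 13 markers of monocytes and macrophages 2 were higher and 1 lower, and their range was -0.42 to 0.69. Of 9 dendritic cell markers 1 was higher and 1, Bst2, lower. Of 6 red cell markers 1 was higher and 1 lower, and of 7 platelet markers 2 were higher. The 10 neutrophil markers lay between -0.07 and 0.12 and did not pass. The part of these cells in the results was not tested.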

How the data were processed

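Each of 5 comparisons of RNA from splenic B cells used 2 oligonucleotide arrays with exchanged dyes. Per the labels' protocols, total RNA was isolated on columns and amplified with T7 polymerase. The deposited values are ratios on a log scale, taken as log2 of Cy5 over Cy3; the authors' normalisation is not given in the sources used here. A base of 10 does not allow the lowest value, -9.03, since a 16-bit scanner spans 4.82, whereas natural logs remain possible. No value was missing in 25344 probes, and the array medians lay between 0.000895 and 0.0148.

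The sign of each ratio was set from the labelled dyes. Symbols were current for 17069 probes, updated through RefSeq synonyms for 3974 and kept for 68, and probes of a symbol were averaged. Of the genes, 16299 had 1 probe and 2001 more. All 10 arrays entered 1 limma fit (limma 3.58.1, R 4.3.3) with 5 group coefficients and a dye effect (residual degrees of freedom 4, prior 3.13), and p-values were adjusted by Benjamini-Hochberg over 22533 features. Precision is limited by the number of arrays. RefSeq promoters were matched by symbol for 80.2% of genes. Named genes were Ptger4, the 12 largest called rises and falls by the smaller array ratio, the 8 largest differences between genotypes each way, and up to 4 called members per list and direction with the smallest p. Among the last, mostly those that kept their call without either array were printed, so they look steadier than their lists. The members and lists were chosen with earlier results of these data known. Alternatives were no dye term, centring, scaling, single probes, 4 arrays only, a minimum fold of 1.5, an adjusted p limit of 0.01 and omission of each array.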

Additional observations from a re-analysis of the deposited data

Results flagged for a closer look

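The PGE2 response differed between Ptger4+/+ cells and cells labelled Ptger4-/- by the limma test of the difference for 2852 features, higher in Ptger4+/+ for 750 and lower for 2102. All values below are differences of log2 ratios, Ptger4+/+ minus Ptger4-/-, each between 2 arrays and 2 arrays.

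In the higher direction the difference was 1.72 for Cd79a, 1.58 for Pnmal1, 1.52 for Pfn1, 1.47 for Ptk7, 1.40 for Selenow, 1.35 for Rasd1, 1.32 for Slc22a4 and 1.21 for Il1r2. These 8 genes did not reach it in the same way. Rasd1, Il1r2, Ptk7 and Pnmal1 rose in Ptger4+/+ cells. Pfn1 did not pass in Ptger4+/+ cells and fell in cells labelled Ptger4-/-. Cd79a, Selenow, encoding a selenoprotein, and Slc22a4, a transporter of organic cations, were called in opposite directions.

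In the lower direction the difference was -2.41 for Eef1g, -2.34 for Rpl5, -2.03 for Slc25a3, -1.99 for Psma6, -1.98 for Bccip, -1.87 for Eif3m, -1.87 for Dnajc7 and -1.84 for Ngdn, a nucleolar protein gene. Each of these 8 rested on a fall in Ptger4+/+ cells, with ratios between 0.03 and 0.33 in the others. For Ptger4 the difference was -0.63. The highest limma adjusted p among the 16 genes was 0.00388, at Ngdn.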

How the results depend on the processing

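No paired analysis was possible because the labels carry no replicate numbers. The counts of features called higher, called lower and differing between genotypes were 2053, 3835 and 2852. They were 577, 2329 and 1111 without a dye term, 677, 2493 and 1272 at a limit of 0.01, and 18, 233 and 123 with a minimum fold of 1.5. Centring and scaling the arrays gave 856 higher and 1763 differing, with 2783 lower. Leaving out single arrays gave 646 to 1884 higher, 2017 to 3828 lower and 1096 to 2831 differing. The lowest counts of calls came without array 2 of the Ptger4+/+ pair. The fewest differences (1096 and 1304) came without array 2 or array 1 of the pair labelled Ptger4-/-. When an array of a pair was left out, the remaining array was taken to vary as other groups do. Centred arrays, single probes and the 4 PGE2 arrays alone kept each of these counts within 1.5 times. Features changed at least 2-fold on both arrays numbered 156, but 65 after scaling and 496 on a reading as natural logs, which was chosen after seeing the data. The cause of these shifts was not tested. Of 206 values of named genes, 153 kept their call under every alternative run for them, and no called value changed sign. Changes of sign among values that were not called were not counted. Calls were lost for 40 without array 2, 28 without array 1, 28 without a dye term and 22 after scaling. Signal over background was not analysed here, so dim probes could not be set apart.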

Other observations

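Odorant and vomeronasal receptors sense odours and pheromones in the nose. Of 887 of their genes measured, 118 were called higher with PGE2 in Ptger4+/+ cells (13.3%, beside 9.11% of all features) and 1 lower (0.113%, beside 17%), with a median log2 ratio of 0.07. In the 2 h comparison of Ptger4+/+ cells 17 were higher and 3 lower. Probes without a gene symbol leaned the same way, with 482 of 4233 called higher (11.4%) and 298 lower (7.04%), against 1571 (8.58%) and 3537 (19.3%) of the 18300 genes with a symbol. These sets were chosen after their values had been seen.

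Some strong falls lay outside the lists. Xpo1, the nuclear export receptor gene, was at -1.45 and -1.56. Acly, whose product makes cytosolic acetyl-CoA, was at -1.49 on both arrays, and Ssb, encoding the La protein, at -1.20 and -1.85. Chd4, a chromatin remodeller gene, was at -1.47 and -1.58, and Prkca, a protein kinase C gene, at -1.01 and -1.59. Each was called by limma, and each was picked after its values had been seen. Arfgef1, with 2 probes, was at -3.01 on array 1 with a mean of -2.01 and a standard error of 0.32, since the arrays lay far apart.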
